A study of Mus musculus with 6 samples.

Results

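The 48 genes described here carry pyruvate into the mitochondrion, run the tricarboxylic acid (TCA) cycle and oxidise fatty acids. They were picked by gene name from the pathway, by a rule that uses no measured value but was written with earlier results of these data known, and all 48 were found among the 28812 gene rows of the table. All 48 also passed the filter on low counts, as did 17290 genes in all. RNA selected for poly(A) tails was sequenced from wild-type (wt) mouse chondrocytes, the cells of cartilage, in 6 libraries. The mitochondria group (3 libraries) received interleukin-1 beta (IL-1β) together with mitochondria. The vehicle group (3 libraries) received the same cytokine together with vehicle. All 6 libraries are labelled osteoarthritic (OA) and all received IL-1β, which drives inflammation and matrix loss in cartilage, and no chondrocytes without IL-1β were analysed here. The series title names osteocytes, the cells buried in bone, as the source of the mitochondria. Strain, age, dose and time are not given in the sources used here, nor whether the 3 libraries of a group came from separate animals or cultures, so the p-values measure only the spread between these libraries.

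Pyruvate made by glycolysis crosses the inner mitochondrial membrane through the carrier formed by Mpc1 and Mpc2. There it is either converted to acetyl-CoA by the pyruvate dehydrogenase complex, which kinases switch off and phosphatases switch on by acting on its E1 alpha subunit, or converted to oxaloacetate by pyruvate carboxylase. Acetyl-CoA also comes from fatty acids, which enter as carnitine esters and are shortened by beta-oxidation, and it is burnt in the TCA cycle to feed the respiratory chain. Chondrocytes live in poorly supplied tissue and are known for relying heavily on glycolysis.

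Deposited expected counts totalled 63547854 to 66293786 per library, and low counts piled up at 4 and 8, so that 1 fragment may be worth about 4 counts. Replicate 1 of each group stood apart from its group on the leading principal component of log2 CPM (counts scaled for library size with TMM factors), at -81.44 for mitochondria replicate 1 against -27.36 and -34.7 for replicates 2 and 3, and at 30.39 for vehicle replicate 1 against 56.75 and 56.36. For 31 of the 48 genes mitochondria replicate 1 was the library farthest from the other members of its group, and for 24 of 48 this was vehicle replicate 1. Transcripts of the mitochondrial chromosome made up 1.66% to 3.34% of summed FPKM in mitochondria libraries and 4.95% to 6.18% in vehicle libraries.

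The pathway as a whole was present at nearly the same level in both groups, with 2 genes lower and none higher in chondrocytes given mitochondria. Levels are in FPKM (fragments per kilobase of transcript, scaled for library size), which allows genes to be compared per length. Summed over the 48 genes the level was 942 ± 30.5 FPKM in mitochondria libraries and 921 ± 28.1 FPKM in vehicle libraries (SD, n = 3 each). Differences were tested on the counts of all 17290 genes with edgeR's quasi-likelihood test (two-sided, Benjamini-Hochberg adjustment over all genes, threshold 0.05). Each log2 fold change sets mitochondria over vehicle and is followed by its standard error (SE). Pyruvate carboxylase, Pcx, and the E1 alpha subunit of pyruvate dehydrogenase, Pdha1, fell. That is 2 of 48 genes lower, against 8.46% of all genes tested, and 0 of 48 higher, against 6.36%. At an unadjusted p under 0.05, 12 of the 48 were higher and 3 lower, against 14.9% and 16.6% of all genes tested. DESeq2 called 7 of the 48 higher, against 10.6% of the genes it tested, and the same 2 genes lower, against 13.6%. The 7 higher were Slc25a20, Sdhd, Hadh, Cpt2, Sdhb, Mdh2 and Cpt1a, at adjusted p from 0.015 to 0.0498 (DESeq2 Wald test). The median log2 fold change was 0.08 over the 48 genes and 0.00 over all genes tested, and 27 of 48 estimates (56.2%) were above 0, against 50.3% of all genes tested.

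**Figure D1:**
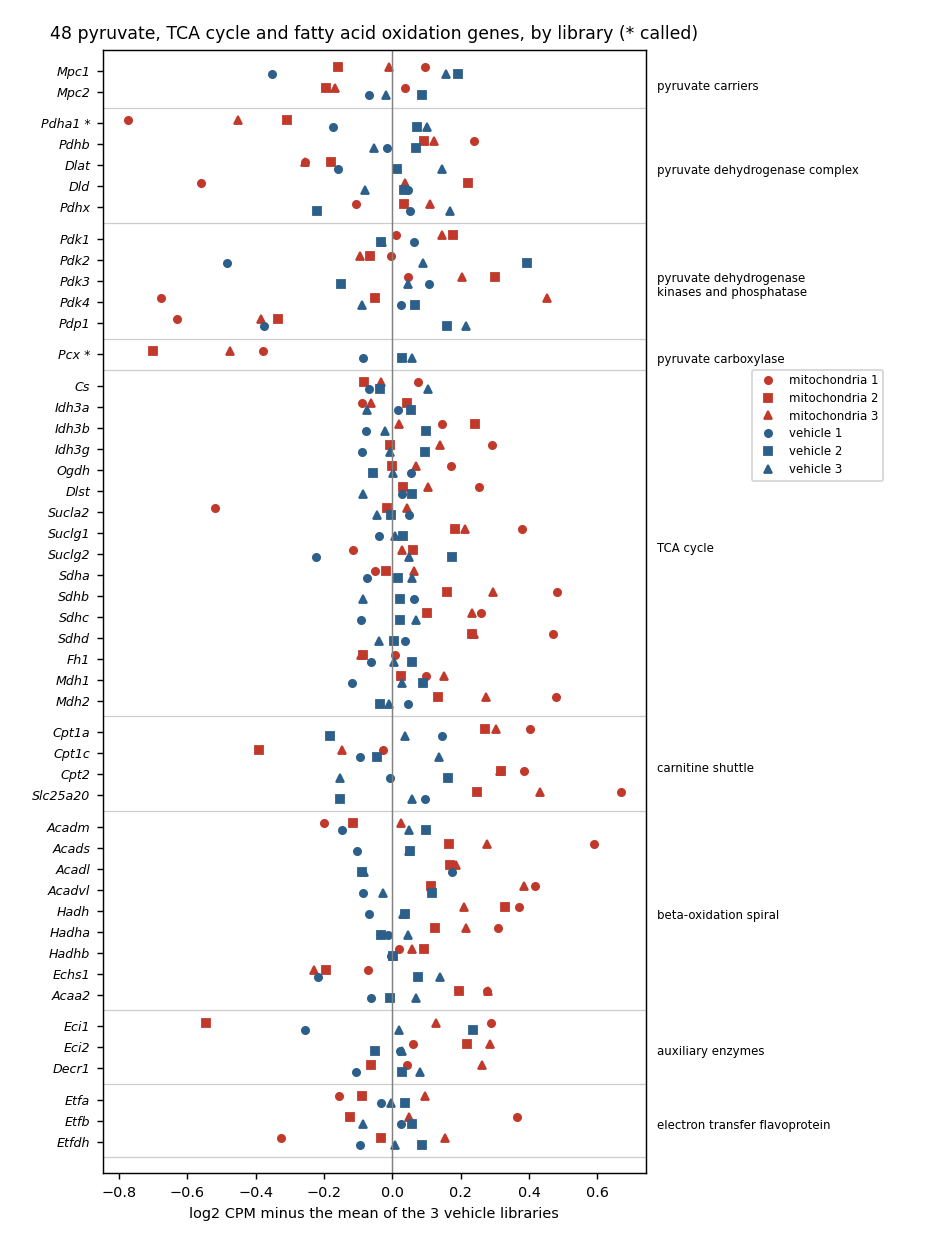
Each row is 1 gene and each point 1 library, as log2 CPM minus the mean of the 3 vehicle libraries, with mitochondria libraries above vehicle libraries in each row and an asterisk at the 2 genes called. Pcx and Pdha1 have all 3 mitochondria points left of all 3 vehicle points, while most carnitine shuttle and beta-oxidation genes have mitochondria points to the right, several of them with mitochondria replicate 1 farthest out.

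Split by arm, the 13 pyruvate genes held both calls, with 4 estimates above 0 and 9 below and a median of -0.07. The 16 TCA cycle genes had 10 estimates above 0 and 6 below, a median of 0.11 and no call. The 19 fatty acid oxidation genes had 13 above 0 and 6 below, a median of 0.17 and no call. The CPM values of the groups did not overlap in 15 of the 48 genes in the direction of mitochondria higher, where all genes tested gave 19.8%, and in 3 in the direction of mitochondria lower, where all genes gave 20.9%. Of the 15, 9 were fatty acid oxidation genes, 5 TCA cycle genes and 1 a pyruvate gene. Summed FPKM of the pyruvate genes averaged 200 ± 15.7 in mitochondria libraries and 223 ± 8.97 in vehicle libraries (SD, n = 3 each). In the same order the sums averaged 452 ± 25.4 and 424 ± 11.2 for the TCA cycle genes. For the fatty acid oxidation genes they averaged 289 ± 18.7 and 273 ± 9.03. A difference in direction between the arms was not tested.

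The pyruvate carrier was not called in either subunit. Mpc1 had 11.8, 9.85 and 11.04 FPKM in mitochondria libraries, against 8.97, 13.4 and 13.0 FPKM in vehicle libraries, and the groups overlapped (log2 -0.04 ± 0.16, adjusted p = 0.89, edgeR). Mpc2, the partner without which the carrier does not form, had 2.90, 2.45 and 2.53 FPKM in mitochondria libraries, against 2.79, 3.18 and 2.94 FPKM in vehicle libraries (log2 -0.11 ± 0.12, adjusted p = 0.59). These groups overlapped as well, and the estimate of Mpc2 was 0.07 with offsets for GC content. The count of Mpc1 is uncertain, because the processed pseudogene Mpc1-ps shares 261 aligned bases with it at 100% identity and was listed at 27.9 to 37.9 FPKM in mitochondria libraries and 34.9 to 40.5 FPKM in vehicle libraries. How reads were split between them is not given in the sources used here.

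Pyruvate carboxylase, the enzyme that refills the TCA cycle with oxaloacetate, fell. Pcx had 9.49, 7.55 and 8.93 FPKM in mitochondria libraries, against 12.02, 13.3 and 13.5 FPKM in vehicle libraries. All 3 mitochondria libraries lay below all 3 vehicle libraries (log2 -0.51 ± 0.11, adjusted p = 0.020, edgeR). The E1 alpha subunit of pyruvate dehydrogenase, which binds thiamine pyrophosphate and carries the sites that the kinases phosphorylate, fell as well. Pdha1 had 28.4, 39.1 and 35.8 FPKM in mitochondria libraries, against 44.6, 54.2 and 54.9 FPKM in vehicle libraries. These groups also did not overlap, with mitochondria replicate 1 lowest of all 6 (log2 -0.50 ± 0.13, adjusted p = 0.038, edgeR). The level of Pcx relative to that of Pdha1 within a library was 0.334, 0.193 and 0.249 in mitochondria libraries, against 0.270, 0.246 and 0.246 in vehicle libraries, so this ratio overlapped between groups. Neither call held when mitochondria replicate 3, vehicle replicate 2 or vehicle replicate 3 was left out. Without a filter on low counts, with 26044 genes fitted in edgeR, neither held either. The reason was not tested. Both estimates stayed below 0 in all 20 alternatives tried, from -0.72 to -0.43 for Pcx and from -0.61 to -0.38 for Pdha1, and both genes were called in 15 of them.

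The start regions of the 2 genes that fell are shown because they are the only genes of the 48 that were called. Sequences are RefSeq windows on GRCm38.p6, from 250 bases before to 50 after an annotated start, written 5′ to 3′ along the gene. Capitals mark letters that match CCAAT or the GC box GGGCGG on either strand. The Pdha1 window is chrX:160138381-160138680 on the minus strand. Pcx has an upstream window at chr19:4510222-4510521 and a downstream window at chr19:4594069-4594368, both on the plus strand.
Pdha1: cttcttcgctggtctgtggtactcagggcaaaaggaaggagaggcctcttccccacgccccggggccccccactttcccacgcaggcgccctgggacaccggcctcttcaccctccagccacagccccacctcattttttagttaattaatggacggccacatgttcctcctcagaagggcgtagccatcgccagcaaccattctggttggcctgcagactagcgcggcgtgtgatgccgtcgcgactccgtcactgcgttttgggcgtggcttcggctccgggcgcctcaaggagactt
Pcx upstream: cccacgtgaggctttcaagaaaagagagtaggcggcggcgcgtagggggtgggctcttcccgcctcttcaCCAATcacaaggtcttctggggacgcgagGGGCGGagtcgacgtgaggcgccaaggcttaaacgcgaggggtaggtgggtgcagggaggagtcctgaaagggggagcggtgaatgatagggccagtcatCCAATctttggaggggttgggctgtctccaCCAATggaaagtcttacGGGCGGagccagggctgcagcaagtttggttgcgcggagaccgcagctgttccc
Pcx downstream: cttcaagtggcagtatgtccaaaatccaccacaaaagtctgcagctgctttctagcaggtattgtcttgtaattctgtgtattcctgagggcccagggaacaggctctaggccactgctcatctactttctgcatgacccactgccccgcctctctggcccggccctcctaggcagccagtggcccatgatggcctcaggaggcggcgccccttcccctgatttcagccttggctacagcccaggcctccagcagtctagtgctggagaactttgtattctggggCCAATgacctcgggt
The Pdha1 window held no match to either motif, the upstream Pcx window 3 CCAAT and 2 GC boxes, and the downstream Pcx window 1 CCAAT and no GC box. Windows were found for 43 of the 48 genes, 52 windows in all, and CCAAT occurred in 57.7% of them and GGGCGG in 69.2%, against 37.3% and 59.7% of 15040 windows of genes tested. The letters of NRF1, a factor that drives many respiratory chain genes (GCGC, any 2 bases, GCGC), were in 11.5% of the 52 windows and 11.7% of the windows of genes tested. TNAAGGTCA, the extended element of estrogen-related receptors, was in 1 window, that of Sdhd, or 1.92%, against 0.811% of the windows of genes tested. A direct repeat of AGGTCA with 1 base between, a form bound by PPAR receptors with RXR, was in 0 of 52, against 0.0399%. Both strands were searched for each, and matches of different motifs shared bases in 0 of the 52 windows. The data do not say which start a library's reads came from.

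The gene of Pcx (ENSMUSG00000024892) spans chromosome 19 from 4510472 to 4621752, and that of Pdha1 (ENSMUSG00000031299) spans the X chromosome from 160122209 to 160138413 on GRCm38. Exons of Map3k15 overlap those of Pdha1 on the opposite strand over 603 bases, and Map3k15 was listed at 0.188 FPKM on average in mitochondria libraries and 0.232 FPKM in vehicle libraries.

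None of the other subunits of the pyruvate dehydrogenase complex was called. Pdhb, the E1 beta subunit that pairs with the alpha subunit, had 18.0, 16.2 and 16.7 FPKM in mitochondria libraries, against 15.6, 17.0 and 15.5 FPKM in vehicle libraries (log2 0.15 ± 0.09, adjusted p = 0.30, edgeR). The groups of Pdhb overlapped in FPKM, while in CPM all mitochondria libraries lay above all vehicle libraries. The ratio of Pdha1 to Pdhb within a library was 1.58, 2.42 and 2.14 in mitochondria libraries, against 2.86, 3.20 and 3.55 in vehicle libraries, without overlap. Dlat, the E2 core that transfers the acetyl group, averaged 8.50 ± 0.220 FPKM in mitochondria libraries and 10.5 ± 1.19 FPKM in vehicle libraries (SD, n = 3 each). It was not called (log2 -0.24 ± 0.11, adjusted p = 0.17), although its groups did not overlap. Dld, the E3 subunit that the oxoglutarate complex also uses, had 16.5, 28.3 and 25.2 FPKM in mitochondria libraries, against 26.1, 26.5 and 24.3 FPKM in vehicle libraries. Mitochondria replicate 1 alone was far below the other 5 libraries. Pdhx, which anchors E3 to the core, changed by 0.01 ± 0.14 (adjusted p = 0.98).

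**Figure D2:**
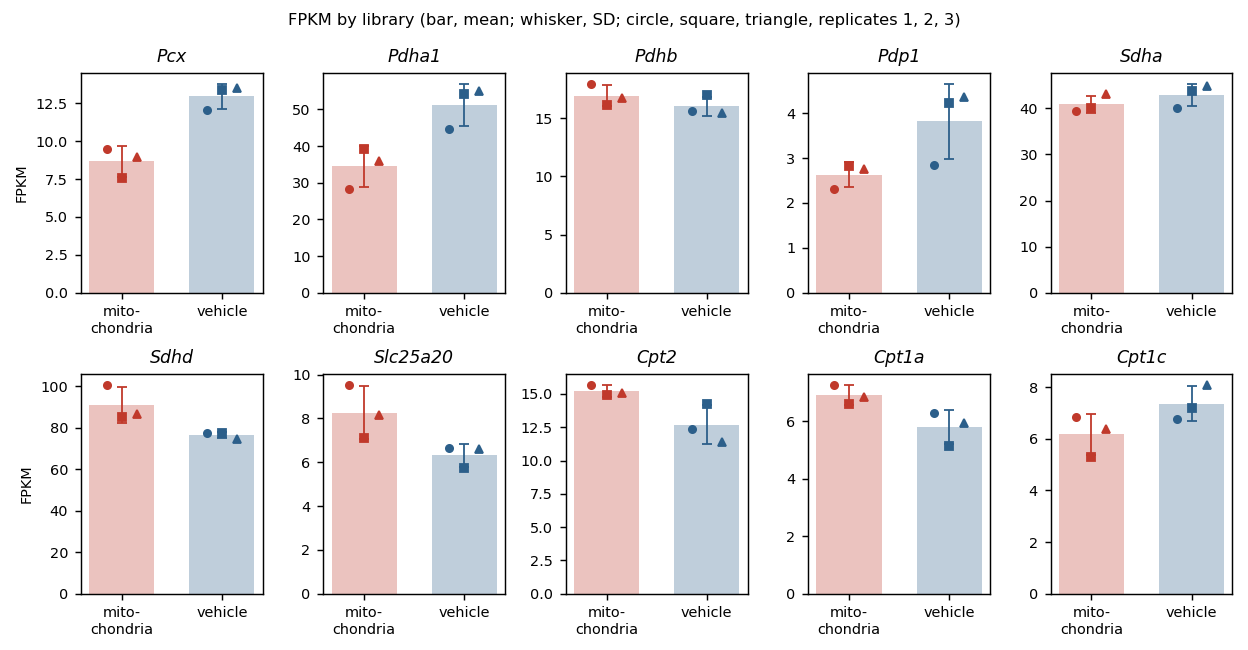
FPKM of 10 genes at entry points and in succinate dehydrogenase, with bars for the mean of 3 libraries, whiskers for the SD and a point per library, mitochondria left of vehicle. Pcx and Pdha1 are lower in all mitochondria libraries while Pdhb and Sdha overlap, and Sdhd, Slc25a20, Cpt2 and Cpt1a are higher in all mitochondria libraries without being called.

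No kinase or phosphatase of the complex among the 48 was called. Pdk1, a kinase known as a target of hypoxia-inducible factor, and Pdk3 supplied nearly all of the kinase transcript. Pdk1 had 38.7, 43.3 and 42.9 FPKM in mitochondria libraries, against 41.7, 39.9 and 39.7 FPKM in vehicle libraries (log2 0.11 ± 0.08, adjusted p = 0.40, edgeR). Pdk3 had 38.7, 46.0 and 43.5 FPKM in mitochondria libraries, against 41.8, 35.8 and 40.8 FPKM in vehicle libraries (log2 0.18 ± 0.11, adjusted p = 0.28). Both sets of values overlapped. Pdk2, the widely expressed isoform, had 3.36, 3.21 and 3.17 FPKM in mitochondria libraries, against 2.50, 4.70 and 3.77 FPKM in vehicle libraries (log2 -0.10 ± 0.21, adjusted p = 0.80). Pdk4, the isoform known to rise in fasting and to follow fatty acid use in muscle and liver, had 0.649, 0.995 and 1.43 FPKM in mitochondria libraries, against 1.09, 1.15 and 1.03 FPKM in vehicle libraries (log2 -0.02 ± 0.28, adjusted p = 0.97). The mitochondria values of Pdk4 spanned the vehicle values on both sides, and its estimate was 0.22 without mitochondria replicate 1. That of Pdk2 was 0.11 without vehicle replicate 2.

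The shares of the 4 kinases were set side by side in a test that this number of libraries cannot bring below 0.05. Pdk3 made up 48.2% ± 0.891 of the summed FPKM of the 4 kinases in mitochondria libraries and 46.6% ± 2.30 in vehicle libraries (SD, n = 3 each; difference 1.604 points, exact two-sided permutation p = 0.50, adjusted over 4 isoforms 0.60). Pdk1 made up 47.0% ± 0.630 in mitochondria libraries and 47.8% ± 1.17 in vehicle libraries (exact two-sided permutation p = 0.40, adjusted 0.60). Pdk2 and Pdk4 supplied 3.68% and 1.14% in mitochondria libraries and 4.35% and 1.29% in vehicle libraries (exact two-sided permutation p = 0.60 for each). The 20 assignments of 6 libraries cannot give a p below 0.10.

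The phosphatase Pdp1, which reactivates the complex, had 2.30, 2.81 and 2.76 FPKM in mitochondria libraries, against 2.85, 4.23 and 4.37 FPKM in vehicle libraries. In FPKM all 3 mitochondria libraries lay below all 3 vehicle libraries, narrowly so for vehicle replicate 1, and in CPM the groups overlapped through that library (log2 -0.47 ± 0.18, adjusted p = 0.11, edgeR). Pdp1 was called lower without vehicle replicate 1 (-0.64), and its estimate was -0.09 with GC offsets. Its paralogue Pdp2, which is outside the 48 genes, fell. Pdp2 had 0.517, 0.388 and 0.532 FPKM in mitochondria libraries, against 0.923, 1.04 and 1.07 FPKM in vehicle libraries (log2 -1.01 ± 0.20, adjusted p = 0.015, edgeR). It did not pass without vehicle replicate 2 or vehicle replicate 3. Summed FPKM of the 4 kinases relative to Pdp1 was 35.4, 33.2 and 33.0 in mitochondria libraries, against 30.6, 19.3 and 19.5 in vehicle libraries, without overlap.

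None of the 16 TCA cycle genes was called. Citrate synthase, Cs, which joins acetyl-CoA to oxaloacetate, had 29.6, 26.4 and 27.7 FPKM in mitochondria libraries, against 27.8, 29.0 and 31.9 FPKM in vehicle libraries. The groups overlapped (log2 -0.01 ± 0.09, adjusted p = 0.93, edgeR). The 3 subunits of isocitrate dehydrogenase 3, Idh3a, Idh3b and Idh3g, changed by -0.04, 0.14 and 0.14 (adjusted p = 0.84, 0.40 and 0.41). Ogdh and Dlst, the E1 and E2 subunits of the oxoglutarate dehydrogenase complex, changed by 0.08 and 0.13 (adjusted p = 0.58 and 0.38). Fumarase Fh1 and the cytosolic malate dehydrogenase Mdh1 changed by -0.06 and 0.09 (adjusted p = 0.73 and 0.55).

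The subunits of succinate dehydrogenase, which is also complex II of the respiratory chain, did not have the same estimates. Sdhd, a membrane anchor and the most abundant of the 48 transcripts, had 100.8, 85.1 and 86.5 FPKM in mitochondria libraries, against 77.3, 77.5 and 74.6 FPKM in vehicle libraries. All mitochondria libraries lay above all vehicle libraries (log2 0.32 ± 0.10, adjusted p = 0.060, edgeR). The iron-sulphur subunit Sdhb had 35.0, 27.9 and 31.0 FPKM in mitochondria libraries, against 27.1, 27.0 and 24.9 FPKM in vehicle libraries (log2 0.32 ± 0.11, adjusted p = 0.084). Sdhc, the other anchor, changed by 0.20 ± 0.09 (adjusted p = 0.18). The flavoprotein subunit Sdha had 39.4, 40.1 and 43.0 FPKM in mitochondria libraries, against 40.2, 43.9 and 44.8 FPKM in vehicle libraries, with overlap (log2 -0.00 ± 0.08, adjusted p = 0.99). Sdhd relative to Sdha within a library was 2.56, 2.12 and 2.01 in mitochondria libraries, against 1.92, 1.77 and 1.67 in vehicle libraries. Sdhd was called higher by DESeq2 and under 5 other alternatives, its estimates running from 0.21 to 0.38.

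Mitochondrial malate dehydrogenase Mdh2 had 69.5, 54.5 and 60.8 FPKM in mitochondria libraries, against 53.4, 51.7 and 52.2 FPKM in vehicle libraries (log2 0.30 ± 0.10, adjusted p = 0.081, edgeR). The groups did not overlap, and mitochondria replicate 1 was highest. The estimate of Mdh2 was 0.09 with offsets for GC content, -0.01 with offsets for GC content and length, and 0.20 without mitochondria replicate 1. Mdh2 was called higher by DESeq2 (0.30), without mitochondria replicate 2, and without replicate 1 of both groups (0.22). Among succinyl-CoA synthetase subunits, the shared alpha subunit Suclg1 changed by 0.26 ± 0.09 (adjusted p = 0.097), the GTP-forming beta subunit Suclg2 by -0.02 ± 0.13 (adjusted p = 0.95) and the ATP-forming beta subunit Sucla2 by -0.14 ± 0.15 (adjusted p = 0.55). Sucla2 had 11.5, 16.3 and 17.1 FPKM in mitochondria libraries, against 17.7, 17.4 and 16.9 FPKM in vehicle libraries, and without mitochondria replicate 1 its estimate was 0.01. Suclg2 shares 1302 aligned bases at 98.9% identity with the processed pseudogene Gm15163, listed at 2.81 FPKM on average in mitochondria libraries and 2.47 FPKM in vehicle libraries, and its count is therefore uncertain.

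The carnitine shuttle, which carries long-chain fatty acids into the mitochondrion, had its 3 common components at higher estimates and none of them called. Slc25a20, the carnitine-acylcarnitine carrier of the inner membrane, had the largest positive estimate of the 48 genes in this fit. It had 9.54, 7.10 and 8.16 FPKM in mitochondria libraries, against 6.64, 5.72 and 6.59 FPKM in vehicle libraries. The groups did not overlap (log2 0.46 ± 0.13, adjusted p = 0.053, edgeR). It was called higher in 9 of 20 alternatives, among them the fit with the replicate number as a block, and its adjusted p ran from 0.015 to 0.20 over the alternatives. Cpt2, which releases acyl-CoA on the inner side, had 15.7, 14.9 and 15.05 FPKM in mitochondria libraries, against 12.4, 14.3 and 11.4 FPKM in vehicle libraries (log2 0.33 ± 0.11, adjusted p = 0.079). Cpt1a, the outer membrane enzyme that sets the rate of entry, had 7.27, 6.61 and 6.84 FPKM in mitochondria libraries, against 6.30, 5.14 and 5.95 FPKM in vehicle libraries (log2 0.32 ± 0.11, adjusted p = 0.086). For both genes all mitochondria libraries lay above all vehicle libraries. With GC offsets the estimates were smaller, at 0.16 for Cpt2 and 0.17 for Cpt1a, against 0.40 for Slc25a20. Cpt1c, a paralogue best known from brain, had 6.85, 5.31 and 6.36 FPKM in mitochondria libraries, against 6.78, 7.19 and 8.10 FPKM in vehicle libraries (log2 -0.18 ± 0.12, adjusted p = 0.35). Its groups overlapped through replicate 1 of each. The ratio of Cpt1a to Cpt1c was 1.06, 1.25 and 1.08 in mitochondria libraries, against 0.929, 0.715 and 0.735 in vehicle libraries.

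The enzymes of the beta-oxidation spiral, which shorten acyl-CoA in repeated rounds, had 7 of 9 estimates above 0 and no call. Hadh, the dehydrogenase for medium- and short-chain hydroxyacyl-CoA, had 11.2, 10.8 and 10.1 FPKM in mitochondria libraries, against 8.56, 9.43 and 9.32 FPKM in vehicle libraries, without overlap (log2 0.30 ± 0.09, adjusted p = 0.063, edgeR). Acadvl, the dehydrogenase that opens the spiral for very long chains and the most abundant of the 9, had 41.2, 33.3 and 40.6 FPKM in mitochondria libraries, against 30.1, 35.5 and 31.9 FPKM in vehicle libraries, with overlap (log2 0.31 ± 0.11, adjusted p = 0.094). Exons of Dvl2 overlap those of Acadvl on the opposite strand over 1151 bases, and whether the counting used strand is not given in the sources used here. The short-chain enzyme Acads changed by 0.35 ± 0.13 (adjusted p = 0.11), the long-chain enzyme Acadl by 0.17 ± 0.10 (adjusted p = 0.30) and the medium-chain enzyme Acadm by -0.10 ± 0.11 (adjusted p = 0.58). The thiolase Acaa2 changed by 0.25 ± 0.10 (adjusted p = 0.12) and the short-chain hydratase Echs1 by -0.17 ± 0.12 (adjusted p = 0.37). The trifunctional protein subunits Hadha and Hadhb changed by 0.22 ± 0.08 and 0.06 ± 0.08 (adjusted p = 0.12 and 0.70). With GC offsets the estimates were 0.08 for Acads, 0.11 for Acadvl and 0.10 for Acaa2, while those of Hadhb and Acadl were 0.32 and 0.36. None of these 5 was called with GC offsets alone, while Acadl was called higher with GC offsets and the replicate number as a block. Hadhb is uncertain, since the processed pseudogene Gm13910 matches it over 1428 bases at 99.8% identity and was listed at 16.6 FPKM on average in mitochondria libraries and 17.7 FPKM in vehicle libraries, above Hadhb itself (10.0 FPKM in mitochondria libraries and 10.1 FPKM in vehicle libraries).

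The auxiliary enzymes for unsaturated fatty acids and the electron transfer flavoprotein were not called. The isomerase Eci2 averaged 10.3 ± 0.848 FPKM in mitochondria libraries and 9.46 ± 0.225 FPKM in vehicle libraries (SD, n = 3 each; log2 0.19 ± 0.10, adjusted p = 0.21, edgeR). The isomerase Eci1 had 8.24, 4.59 and 7.43 FPKM in mitochondria libraries, against 5.85, 8.43 and 7.21 FPKM in vehicle libraries, a spread within each group wider than the difference between them (log2 -0.01 ± 0.22, adjusted p = 0.97). The reductase Decr1 changed by 0.09 ± 0.12 (adjusted p = 0.67). Etfa and Etfb, the subunits of the flavoprotein that collects electrons from acyl-CoA dehydrogenases, changed by -0.05 ± 0.10 and 0.11 ± 0.14 (adjusted p = 0.80 and 0.63). Etfdh, which passes those electrons to ubiquinone, changed by -0.06 ± 0.13 (adjusted p = 0.81). The estimate of Etfb was -0.12 with GC offsets and -0.04 without mitochondria replicate 1.

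Among genes next to these pathways 15 were called, in both directions. Of 100 further genes of the TCA cycle, its carriers, lipoylation, fatty acid uptake, peroxisomal oxidation and their regulators that the table lists, 97 were tested. Of these, 7 rose and 8 fell, at a median of 0.00, against 6.36% of all genes tested higher and 8.46% lower. All 15 had groups that did not overlap in CPM, where all genes tested gave 19.8% higher and 20.9% lower. This adds no support, because the test that picked the 15 used the same libraries. SDH assembly factors (4 tested), mitochondrial substrate carriers (7 tested) and the genes listed under peroxisomal oxidation (16 tested) held no call.

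Among enzymes that feed or drain the cycle, 2 of 18 rose and 2 fell, against 6.36% of all genes tested higher and 8.46% lower. Glud1, the glutamate dehydrogenase that makes oxoglutarate, had 33.3, 33.4 and 33.4 FPKM in mitochondria libraries, against 45.2, 50.6 and 51.2 FPKM in vehicle libraries (log2 -0.49 ± 0.08, adjusted p = 0.0093, edgeR). Idh1, the cytosolic NADPH-forming isocitrate dehydrogenase, fell to 12.8, 14.6 and 13.9 FPKM in mitochondria libraries, against 16.9, 29.3 and 27.3 FPKM in vehicle libraries (log2 -0.76 ± 0.18, adjusted p = 0.028). Gls2, a glutaminase, had 14.6, 13.0 and 13.5 FPKM in mitochondria libraries, against 9.10, 5.57 and 4.86 FPKM in vehicle libraries (log2 1.14 ± 0.22, adjusted p = 0.015). Me2, the mitochondrial malic enzyme that turns malate into pyruvate, had 35.5, 39.99 and 38.7 FPKM in mitochondria libraries, against 33.7, 25.03 and 24.5 FPKM in vehicle libraries (log2 0.52 ± 0.14, adjusted p = 0.036). In Idh1, Gls2 and Me2 vehicle replicate 1 was the vehicle library nearest to the mitochondria group. ATP-citrate lyase Acly, which returns citrate carbon to acetyl-CoA in the cytosol, changed by -0.02 ± 0.08 (adjusted p = 0.91).

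Genes of fatty acid handling before and around the mitochondrion were called in both directions. Of 19 uptake and activation genes, 2 were higher and 3 lower, against 6.36% and 8.46% of all genes tested. Fabp5, a fatty acid-binding protein, had 40.4, 34.2 and 37.2 FPKM in mitochondria libraries, against 26.0, 21.1 and 19.4 FPKM in vehicle libraries (log2 0.82 ± 0.13, adjusted p = 0.0078, edgeR). Slc27a4, a transport protein with acyl-CoA synthetase activity, rose by 0.49 ± 0.13 (adjusted p = 0.040). The acyl-CoA synthetases Acsl3 and Acsl4 changed by -0.76 ± 0.17 and -0.92 ± 0.26 (adjusted p = 0.021 and 0.046). Acaca, acetyl-CoA carboxylase 1, whose product malonyl-CoA inhibits the Cpt1 step, changed by -0.82 ± 0.15 (adjusted p = 0.013, edgeR). Its paralogue Acacb, listed at 0.301 FPKM on average in mitochondria libraries and 0.225 FPKM in vehicle libraries, changed the other way and was not called. The estimate of Acacb was 0.49 ± 0.23 (adjusted p = 0.18, edgeR). Among other mitochondrial acyl-CoA enzymes, Ivd, isovaleryl-CoA dehydrogenase of leucine breakdown, and Acad11 changed by -0.54 ± 0.15 and -0.43 ± 0.12 (adjusted p = 0.043 and 0.044).

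Of 10 regulators and targets of PPAR and related receptors that were tested, 3 rose and none fell, against 6.36% of all genes tested higher and 8.46% lower. Angptl4, a secreted lipase inhibitor and known PPAR and hypoxia target, had 24.8, 20.8 and 21.6 FPKM in mitochondria libraries, against 13.6, 11.5 and 10.3 FPKM in vehicle libraries (log2 0.99 ± 0.13, adjusted p = 0.0051, edgeR). Plin2, which coats lipid droplets, had 49.4, 45.1 and 43.3 FPKM in mitochondria libraries, against 32.3, 24.9 and 23.2 FPKM in vehicle libraries (log2 0.84 ± 0.14, adjusted p = 0.0086). The receptor Ppard had 14.8, 13.2 and 13.5 FPKM in mitochondria libraries, against 11.5, 8.59 and 9.17 FPKM in vehicle libraries (log2 0.57 ± 0.13, adjusted p = 0.022). Ppara was barely detected, at 0.0774 FPKM on average in mitochondria libraries and 0.183 FPKM in vehicle libraries (log2 -1.14 ± 0.53, adjusted p = 0.18). The uncoupling protein Ucp2 changed by -0.51 ± 0.29 (adjusted p = 0.28). Pparg changed by -0.33 ± 0.22 (adjusted p = 0.35), Ppargc1a by -0.93 ± 0.55 (adjusted p = 0.29) and Esrra, the estrogen-related receptor alpha, by 0.21 ± 0.11 (adjusted p = 0.21).

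**Figure D3:**
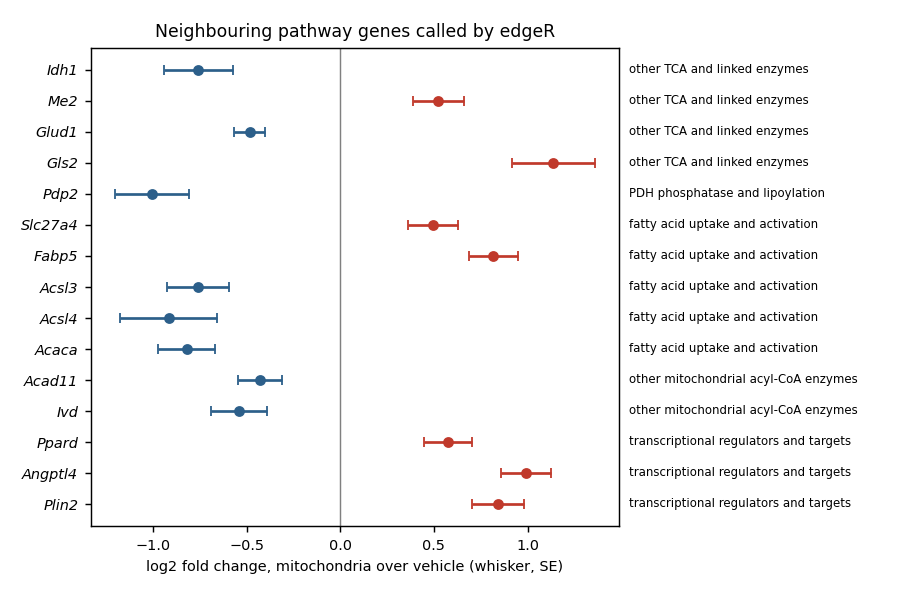
Log2 fold changes, mitochondria over vehicle, of the 15 neighbouring pathway genes called by edgeR, with whiskers for the SE and the list of each gene at the right. The 7 genes that rose run from 0.49 for Slc27a4 to 1.14 for Gls2 and the 8 that fell from -0.43 for Acad11 to -1.01 for Pdp2.

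With 1 library left out, Angptl4 was the only one of the 15 called in all 6 fits. Fabp5 did not pass without vehicle replicate 2. Glud1, Gls2, Pdp2, Acaca, Acsl3 and Plin2 did not pass without vehicle replicate 2 or vehicle replicate 3. Idh1 and Ppard also did not pass without mitochondria replicate 3, nor did Me2 and Slc27a4, which further failed without mitochondria replicate 2. Acsl4 failed in 4 of the 6 fits, Ivd in 4 and Acad11 in 5. With GC offsets the calls of Acsl4, Ppard and Slc27a4 were lost, at log2 fold changes of -0.32, 0.32 and 0.29.

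Base composition moved with part of these values. Transcript GC content of the 48 genes ran from 39.3% (Dld) to 59.6% (Acads), with a median of 49.0%, against 50.5% over all genes tested. Across the 48 genes, which are not independent replicates, the log2 fold change correlated with GC content at r = 0.29 (Spearman 0.36), and over 17271 tested genes at 0.34 (Spearman 0.39). The deviation of mitochondria replicate 1 from the other 2 mitochondria libraries correlated with GC content at r = 0.55 over the 48 genes (Spearman 0.61) and at 0.31 over 17271 tested genes (Spearman 0.50). That of vehicle replicate 1 correlated at -0.16 (Spearman -0.14). When a smooth trend on GC content was taken out of each library, 5 of the 48 genes were higher and 3 lower, against 7.29% and 10.8% of all genes tested.

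With GC offsets 6 genes were called that were not called without. Dld, Pdk3 and Sucla2, the 3 genes of lowest GC content among the 48, had log2 fold changes of 0.66 ± 0.08, 0.80 ± 0.13 and 0.38 ± 0.08 with offsets, against -0.07, 0.18 and -0.14 without. In FPKM the mitochondria and vehicle libraries of all 3 genes overlapped. Sdhd (0.30 ± 0.08) and Slc25a20 (0.40 ± 0.12) were also called higher with offsets, and Cpt1c (-0.41 ± 0.10) lower. Sdhd, Slc25a20 and Cpt1c have GC contents of 49.4%, 50.2% and 56.8%. Most of the other higher estimates shrank. Of the 12 genes higher at an unadjusted p under 0.05 without offsets, 11 had a smaller estimate with them, and the median of the 12 was 0.16 with offsets and 0.31 without. Among TCA cycle genes of this kind Sdhb was 0.12 and Mdh2 0.09 with offsets, and Sdhc, which had not passed at that p, was 0.06. The median of the 19 fatty acid oxidation genes was 0.11 with offsets and 0.17 without, with 13 of 19 above 0 in both. Pcx and Pdha1 stayed lower, at -0.72 ± 0.09 and -0.42 ± 0.10. The part of base composition in the fold changes without offsets was not tested further.

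**Figure D4:**
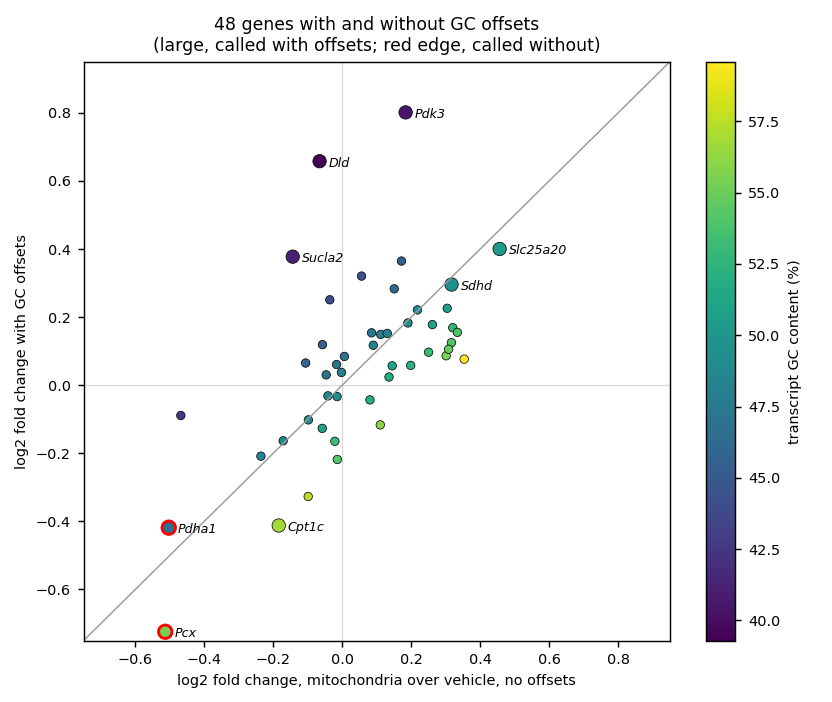
Log2 fold change of each of the 48 genes without offsets (horizontal axis) and with GC offsets (vertical axis), coloured by transcript GC content, with large points for genes called with offsets and red edges for genes called without. Dld, Pdk3 and Sucla2 lie far above the diagonal, while Pcx and Pdha1 lie at the lower left on both axes.

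Chondrocyte identity was checked on 12 markers. Col2a1, the collagen of cartilage, averaged 95.97 FPKM in mitochondria libraries and 112 FPKM in vehicle libraries, and Acan, its proteoglycan, 2.59 FPKM in mitochondria libraries and 1.87 FPKM in vehicle libraries. The summed level of the 12 was 166 to 206 FPKM in mitochondria libraries and 190 to 215 FPKM in vehicle libraries. Of the 12, 2 were higher (Acan and Sox9) and 1 lower (Hapln1), against 6.36% and 8.46% of all genes tested. Hapln1 changed by -1.03 ± 0.17 (adjusted p = 0.0091, edgeR). Markers of osteocytes, the named mitochondria source, summed to 0.150 to 0.553 FPKM in mitochondria libraries and 0.0898 to 0.252 FPKM in vehicle libraries, and Dmp1 and Sost were listed at 0 in all mitochondria libraries. Most of that sum was Fgf23, the only osteocyte marker tested, at 0.305 FPKM on average in mitochondria libraries and 0.121 FPKM in vehicle libraries (log2 1.34 ± 0.73, adjusted p = 0.25), and Mepe was not analysed here. The extraction protocol in the labels mentions an adipose type although the cell type is given as chondrocytes. Of 5 adipocyte markers, 4 were tested and 1 fell (Adipoq), against 8.46% of all genes tested. The sum of the 5 was 2.58 to 3.09 FPKM in mitochondria libraries and 4.72 to 5.08 FPKM in vehicle libraries. Lep was listed at 0 in all 6 libraries. Fibroblast markers summed to 899 to 1071 FPKM in mitochondria libraries and 1004 to 1156 FPKM in vehicle libraries. Of these 5 markers, 2 were lower (Thy1 and Pdgfra), against 8.46% of all genes tested. Macrophage markers (6 tested) and skeletal muscle markers (3 tested) held no call. The macrophage markers summed to 37.5 to 47.8 FPKM in mitochondria libraries and 39.2 to 51.4 FPKM in vehicle libraries. Highest of them was Lyz2, at 20.2 and 28.2 FPKM on average in the same order, and lowest Ptprc, at 0.0179 and 0.0635 FPKM. The skeletal muscle markers summed to 3.29 to 5.85 FPKM in mitochondria libraries and 4.29 to 6.73 FPKM in vehicle libraries. In bulk RNA fewer cells of a type and less RNA per cell cannot be told apart, and the part of these markers in the results above was not tested.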

How the data were processed

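Poly(A) RNA of 6 mouse chondrocyte libraries was measured, 3 with mitochondria and 3 with vehicle. The authors deposited 1 table with FPKM, normalised for length and depth, and expected counts (estimated counts), as whole numbers without normalisation, per the file headers. The submitters' processing notes name HISAT2 2.0, StringTie 1.3.0, Bowtie 0.12.2 and build mm8 without roles. Of 28812 gene identifiers, 28732 were in GENCODE M21 (GRCm38) and 25914 had the same start and end (44 of the 48 genes described), so positions are GRCm38.

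The main test was that of edgeR 4.0.16 (R 4.3.3), with filterByExpr (minimum count 10), TMM scaling, a quasi-likelihood fit with group only, two-sided. The SE was derived from the F statistic and so carries the same information as p. DESeq2 1.42.0 and limma 3.58.1 were alternatives. Depth was 63547854 to 66293786 deposited counts, and low counts piled up at 4 and 8, so 1 fragment may be worth about 4 counts. The main test used the counts undivided, and counts divided by 4 were an alternative. Fold changes come from counts and may differ from FPKM ratios. GC offsets were splines (6 degrees of freedom) of log2 CPM on mean transcript GC content, centred per library. Near-identical copies were sought with minimap2 2.31 (95% identity over 200 bases). The main edgeR fit was tested on simulated counts. Replicate numbers are not stated to pair libraries.

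Named with full statistics are the genes called, the entry and regulatory steps, and in each role the most abundant gene and that of lowest p. Members, lists and this rule were chosen with earlier results of these data known.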

Additional observations from a re-analysis of the deposited data

How the results depend on the processing

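The direction of Pcx and Pdha1 held in all 20 alternatives, and that of the 15 neighbouring genes called in all in which they were tested, while many calls did not. None of the 48 genes was lower without a low-count filter, against 1.95% of all genes. In limma on log2(FPKM + 1) without a filter it was 0 as well, against 1.16%. Leaving out 1 library gave 0 to 3 of the 48 higher and 0 to 3 lower. Over all genes it gave 130 to 1086 higher (0.727% to 6.02%) and 310 to 1694 lower (1.73% to 9.39%). The fits with 0 of the 48 lower were those without mitochondria replicate 3, vehicle replicate 2 or vehicle replicate 3. The number of the 48 called higher was 3 with upper-quartile scaling, against 8.42% of all genes, and 7 by DESeq2, against 10.6%. It was 1 with a minimum count of 40, against 8.22%, and 2 with counts divided by 4, against 8.7%. With GC offsets it was 5, against 7.29%, and with the replicate number as a block as well it was 5, against 6.02%. Over all genes, 1687 were higher by DESeq2, 357 higher and 507 lower without a filter, and 161 higher and 301 lower in limma without a filter. With the replicate number as a block, 1 of the 48 was higher (Slc25a20) and 2 lower, against 5.19% and 8.02% of all genes. Same-number libraries deviated together at correlations of 0.0371, 0.00907 and -0.0152, so the numbers are not taken to pair libraries. Upper-quartile scaling moved the median of all genes to 0.06.

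Over the alternatives other than DESeq2 and GC offsets alone, 0.618% to 10.5% of the genes tested were higher and 1.16% to 13.6% lower. Of the alternatives added after seeing the data, GC and length offsets gave 3 of the 48 higher and 4 lower, against 6.97% and 10.0% of all genes. The fit without replicate 1 of both groups gave 8 of the 48 higher and 5 lower, against 10.5% (1849 genes) and 12.4%.

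Estimates near 0 changed sign in places. With upper-quartile scaling the log2 fold change was 0.021 for Mpc1, 0.032 for Pdk4 and 0.046 for Cs. With GC offsets it was 0.065 for Mpc2 and -0.117 for Etfb, and with the replicate number as a block as well 0.049 and -0.117. With GC and length offsets it was 0.024 for Mpc2, 0.061 for Cs and -0.277 for Etfb. Without replicate 1 of both groups it was 0.228 for Pdk4 and -0.029 for Etfb. Leaving out 1 library gave -0.199 to 0.051 for Mpc1, -0.306 to 0.112 for Pdk2, -0.331 to 0.222 for Pdk4, -0.060 to 0.038 for Cs, -0.012 to 0.155 for Decr1 and -0.036 to 0.215 for Etfb. Leaving out 1 library gave differences in kinase share of -0.358 to 0.0268 points for Pdk4 and -1.41 to 0.0365 points for Pdk2. The causes were not tested. Depth limits genes such as Pdp2 and Ppara more than the 48, whose lowest deposited count was 166.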
